A study of Mus musculus with 12 samples.

Results

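The genes examined encode the respiratory chain and ATP synthase of the inner mitochondrial membrane. They were chosen by symbol alone, as protein-coding genes whose symbol begins with Nduf, Uqcr, Atp5, Cox4, Cox5, Cox6, Cox7 or Cox8, together with Sdha, Sdhb, Sdhc, Sdhd, Cyc1 and Cycs, which gave 96 of 21887 nuclear protein-coding genes. Binding of Hoxb13, a posterior Hox protein, and of Meis1, a homeobox protein of the TALE class, had been mapped by chromatin immunoprecipitation and sequencing (ChIP-seq) in ventricles of CD-1 mice at postnatal day 15. The 12 libraries form 4 groups of 3, namely Hoxb13 precipitates, their inputs without antibody, Meis1 precipitates and their inputs without antibody. All came from hearts of the same strain and age, with no mutant or treated group. The values used were 1 annotated peak list per factor, which holds 22284 Hoxb13 peaks and 30534 Meis1 peaks. Each list covers 3 precipitates and has no value per library, so no spread between hearts, no test and no depth can be given. The shares below are descriptions of the lists, set beside the same share of all protein-coding genes. Whole ventricle holds muscle, endothelial, stromal and blood cells, and the lists do not show in which of them a site was bound, nor do they hold expression values with which the tissue could be checked.

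Complexes I and II take electrons from NADH and from succinate, complex III passes them on to cytochrome c, and complex IV hands them to oxygen. Complexes I, III and IV pump protons, and complex V, the ATP synthase, uses the resulting gradient to make ATP. Heart muscle is dense in mitochondria and depends on this system, and its capacity grows after birth. The members encode nuclear subunits, some factors that assemble complex I, and isoforms typical of muscle or of other tissues.

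Hoxb13 was found at most of these genes, usually at the promoter, and Meis1 at a smaller number. A Hoxb13 peak had been assigned by the authors to 72 of the 96 genes (75%), against 44.4% of all protein-coding genes. At 60 of them (62.5%) it lay in the promoter class, which reaches to 1 kb from a start site, against 30.7%. A Meis1 peak was assigned to 33 genes (34.4%), close to the 38.2% of all protein-coding genes. Meis1 promoter peaks were present at 18 genes (18.8%) against 8.16%. Both factors had a promoter peak at 16 genes (16.7%) against 4.7%, and an overlapping pair of peaks was assigned to 14 genes (14.6%) against 5.89%. Each peak is assigned to 1 gene, and these genes are short, with a median length of 7.205 kb against 17.2 kb for all protein-coding genes. Their RefSeq promoters (build GRCm38.p6, 250 bases before to 50 after the start) are also richer in CG, with a median of 20 CG pairs against 13 in all promoters. Over all promoters the median was 24 with a Hoxb13 peak and 8 without, while among the members it was 20 with a Hoxb13 peak and 19 without. The part of length and CG content in the Hoxb13 share was not tested.

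Among the complexes, Hoxb13 shares were highest for complexes II and V and lowest for complex I. All 4 genes of complex II, 14 of 15 of complex V (93.3%), 16 of 20 of complex IV (80.0%), 7 of 9 of complex III (77.8%) and 30 of 47 of complex I (63.8%) had a Hoxb13 peak, as had Cycs, which encodes cytochrome c. Promoter peaks of Hoxb13 were present at all 4 genes of complex II, 12 of complex V (80.0%), 7 of complex III (77.8%), 13 of complex IV (65.0%) and 23 of complex I (48.9%). Part of the low value of complex I came from genes that are no subunits. Of the 8 complex I assembly factors with the prefix Ndufaf, 2 had a Hoxb13 peak, and of the 37 subunits 28 had one (75.7%), 22 of them at the promoter (59.5%). In complex IV, 13 of the 14 common and muscle subunit genes had a Hoxb13 promoter peak (92.9%), while 0 of the remaining 6 had one, namely the tissue-restricted or hypoxia isoforms Cox4i2, Cox6b2, Cox7b2, Cox8c and Ndufa4l2 and the supercomplex factor Cox7a2l. A Meis1 peak anywhere was assigned to 8 genes of complex V (53.3%), 9 of complex IV (45%), 3 of complex III (33.3%), 1 of complex II and 12 of complex I (25.5%). Meis1 promoter peaks were found at 6 of 15 genes of complex V (40.0%), 4 of 20 of complex IV (20.0%), 2 of 9 of complex III (22.2%), 1 of 4 of complex II and 5 of 47 of complex I (10.6%). With 4 genes in complex II and 47 in complex I, a single gene weighs far more in the smaller one. In the stronger 50% of the Hoxb13 list a promoter peak was left at 4 genes of complex II, 12 of complex V, 13 of complex IV, 5 of complex III and 19 of complex I. At this setting 56.25% of the 96 members had a Hoxb13 promoter peak, against 23.1% of all protein-coding genes.

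**Figure D1:**
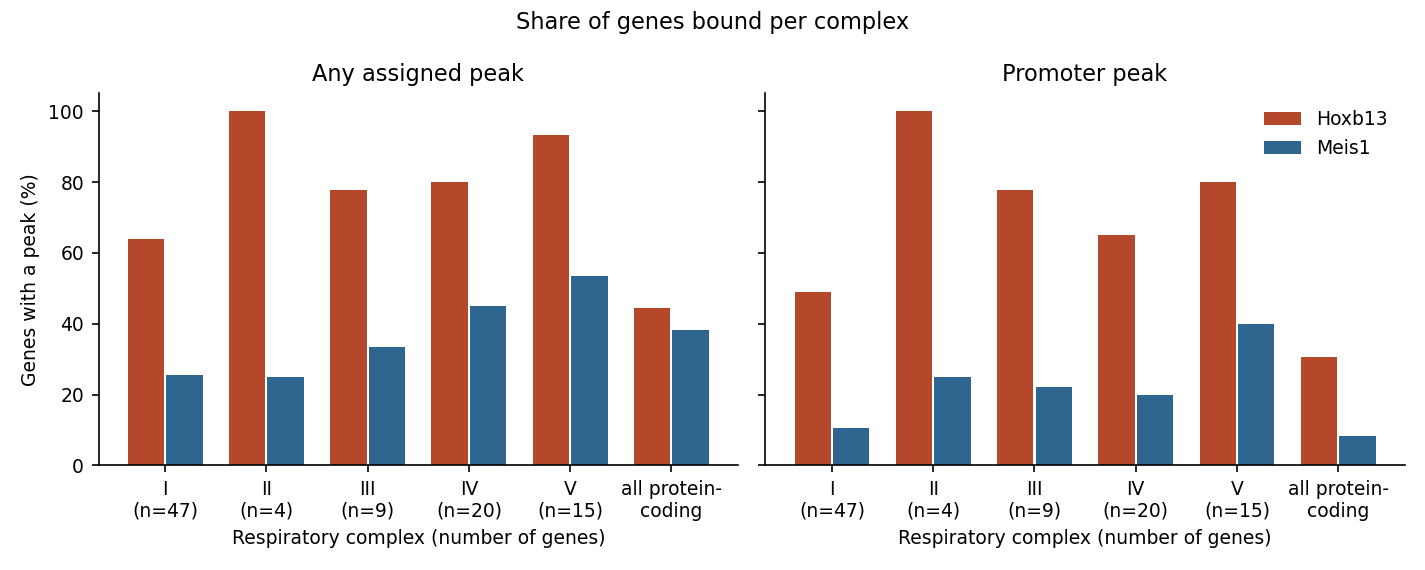
Share of the genes of each complex with at least 1 assigned peak (left) and with a promoter peak (right), in percent, for Hoxb13 and Meis1, beside all 21887 nuclear protein-coding genes. Cycs is not drawn; Hoxb13 bars stand above Meis1 bars in every complex, and Meis1 promoter peaks reach their highest share, 40.0%, in complex V.

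The strongest Hoxb13 peaks lay at ATP synthase genes. Strength here is the authors' value per peak, which can be ranked within a list but not compared between the lists. The first of the members was at the promoter of Atp5b, which encodes the catalytic beta subunit (strength 64.9, rank 401 of 22284, chr10:128082998-128083393 in mm10). Next came Atp5e, the epsilon subunit (57.5, rank 549), and Atp5g2, 1 of the 3 genes for the membrane c ring (55.2, rank 621). Each of the 5 genes for the F1 head, Atp5a1, Atp5b, Atp5c1, Atp5d and Atp5e, had a Hoxb13 promoter peak of strength 39.8 or more. Each c ring gene also had one, of 33.6 at Atp5g1, 55.2 at Atp5g2 and 40.1 at Atp5g3. The stalk genes Atp5j and Atp5o had 41.3 and 40.0, while Atp5h, another stalk gene, had 3 Hoxb13 peaks, all beyond its 3' end. Among the remaining genes of complex V, Atp5l had a promoter peak of 45.9 and Atp5k a weaker one of 22.9. Atp5j2 had no Hoxb13 promoter peak (22.4 at most elsewhere), and the stalk gene Atp5pb had no Hoxb13 peak assigned. Taking the strongest promoter peak of each gene, the median was 42.4 for complex V, 38.1 for II, 29.0 for III, 28.0 for I and 26.2 for IV, against 26.4 for the 6725 protein-coding genes with a Hoxb13 promoter peak. Of the 15 Hoxb13 promoter peaks at complex V genes 10 were in the strongest 10% of the list, as were 3 of 4 at complex II, 7 of 25 at complex I, 2 of 8 at complex III and 2 of 18 at complex IV. Over all Hoxb13 promoter peaks of the list this share was 17.8%.

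In the other complexes the strongest Hoxb13 peaks were also mostly at promoters. In complex I they were those of the assembly factor Ndufaf8 (50.5, rank 777), the core iron-sulfur subunit Ndufs8 (44.1, rank 1173) and the accessory subunit Ndufb5 (42.8, rank 1293). In complex II the range was narrow, with 38.6 at Sdhd and 37.6 at Sdhc, the membrane anchors, 38.5 at Sdhb, the iron-sulfur subunit, and 34.0 at Sdha, the flavoprotein. Complex III was led by the Rieske iron-sulfur protein gene Uqcrfs1 (42.0), the core protein gene Uqcrc1 (39.4) and Cyc1, the gene of cytochrome c1 (31.1). Complex IV was led by Cox8a (41.3) and Cox5a (37.0) at their promoters, followed by a peak of 34.7 assigned to Cox4i2 from 30.6 kb away. Cycs had 4 Hoxb13 peaks, with 25.9 and 24.6 at the promoter and a stronger one of 31.1 in a 3' UTR.

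**Figure D2:**
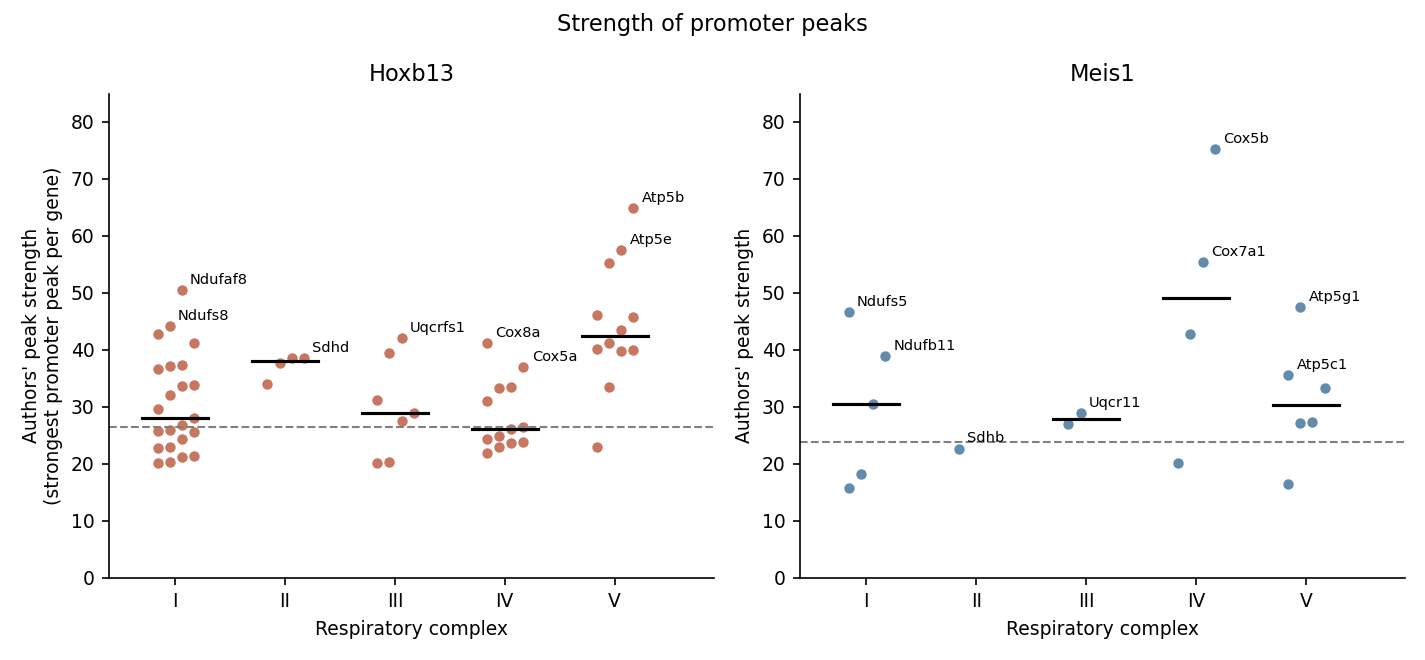
Strength of the strongest promoter peak of each gene in the authors' units, by complex, for Hoxb13 (left) and Meis1 (right). Points are genes (Cycs is not drawn), black lines are medians per complex and the dashed line is the median over all protein-coding genes with a promoter peak of that factor (26.4 for Hoxb13 and 23.9 for Meis1); the Hoxb13 median of complex V, 42.4, is above those of the other complexes.

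Meis1 peaks at these genes were fewer, and the strongest were at subunits of complexes IV and V. The promoter of Cox5b, a zinc-binding subunit of complex IV, held a Meis1 peak of strength 75.2 (rank 1342 of 30534). Cox7a1, the heart and muscle form of a complex IV subunit, had 55.5 (rank 2145), and Cox6a1, the widely expressed form of another, 42.8 (rank 3142). In complex V the strongest was in an intron of Atp5h, 3.68 kb from the start site (64.3, rank 1707), followed by the promoter of Atp5g1 (47.6, rank 2716). A peak of 43.6 assigned to Atp5l lay 21.0 kb upstream, in an intron of Ube4a. Complex I had 46.7 at the promoter of Ndufs5, 43.7 in an intron of Ndufs7 and 38.9 at the promoter of Ndufb11. Complex III had 28.9 at the promoter of Uqcr11, 27.0 at Cyc1 and 16.1 at a site 60.4 kb from Uqcrfs1, beside a further Uqcr11 peak of 26.7 in an exon of Tcf3, and the only Meis1 peak of complex II was at the Sdhb promoter (22.7). Meis1 was present without any Hoxb13 peak at 4 genes, Ndufb11, Ndufb3, Ndufs4 and Cox7b2. How often this held over all protein-coding genes is not given here, so the count of 4 has no baseline. Ndufs5 had a Meis1 peak at the promoter and its Hoxb13 peak upstream, at -15.3 kb.

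The letters TGACAG, the core that TALE homeobox proteins recognise, and their reverse complement CTGTCA were searched in the RefSeq promoters, of which 83 matched 78 of the members. Of the 18 member promoters overlapped by a Meis1 peak 10 held the letters (55.6%), and of the 65 without one 10 did (15.4%). Over all protein-coding promoters the shares were 44.4% of the 1130 with a Meis1 peak and 17.2% of the 20133 without. The 10 windows belong to 9 genes. In 9 of the 10 windows the letters were centred within 50 bp of the Meis1 summit, and the median over all 10 was 14.5 bp. Of all 502 promoters with a Meis1 peak and the letters 74.3% were within 50 bp, and the median over the 502 was 17.5 bp. The exception among the members was Cox6a1, where the letters lay 235.5 bp from the summit, outside the peak. The promoters printed here, 5' to 3' on the gene's strand, are those with the letters (in capitals) at 5 genes with some of the highest Meis1 values, and then 2 windows without them, Atp5b with the strongest Hoxb13 peak and Atp5g1. In both of these the Meis1 summit lay outside the window, at -344 bp for Atp5b and -328 bp for Atp5g1, so the sequence under it was not searched.
Cox5b, chr1:36691237-36691536, plus strand: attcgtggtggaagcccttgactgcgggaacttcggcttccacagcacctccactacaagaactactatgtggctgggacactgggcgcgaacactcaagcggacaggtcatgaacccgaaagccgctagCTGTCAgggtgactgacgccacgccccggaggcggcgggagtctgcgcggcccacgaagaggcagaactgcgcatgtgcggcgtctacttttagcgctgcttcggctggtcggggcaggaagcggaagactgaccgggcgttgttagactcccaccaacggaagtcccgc
Cox7a1, chr7:30183921-30184220, plus strand: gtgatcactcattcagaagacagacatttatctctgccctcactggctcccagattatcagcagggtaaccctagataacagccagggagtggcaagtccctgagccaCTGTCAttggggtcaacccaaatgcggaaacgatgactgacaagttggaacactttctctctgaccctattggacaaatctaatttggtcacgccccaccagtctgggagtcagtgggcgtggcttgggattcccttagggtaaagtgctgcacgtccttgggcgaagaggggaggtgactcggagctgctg
Cox6a1, chr5:115348909-115349208, minus strand: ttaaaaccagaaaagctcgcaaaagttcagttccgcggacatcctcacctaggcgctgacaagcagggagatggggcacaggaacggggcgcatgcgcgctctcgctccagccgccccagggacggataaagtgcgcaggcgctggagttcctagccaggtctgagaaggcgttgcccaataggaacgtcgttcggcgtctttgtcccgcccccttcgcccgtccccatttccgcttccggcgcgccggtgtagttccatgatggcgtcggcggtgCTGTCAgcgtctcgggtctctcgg
Atp5e, chr2:174464052-174464351, minus strand: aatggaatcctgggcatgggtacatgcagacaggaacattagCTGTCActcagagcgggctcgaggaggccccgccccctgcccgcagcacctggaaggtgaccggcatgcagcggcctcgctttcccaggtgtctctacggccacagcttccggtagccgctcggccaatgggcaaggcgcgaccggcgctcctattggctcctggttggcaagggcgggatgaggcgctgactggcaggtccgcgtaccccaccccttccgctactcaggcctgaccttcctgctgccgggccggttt
Ndufs5, chr4:123718137-123718436, minus strand: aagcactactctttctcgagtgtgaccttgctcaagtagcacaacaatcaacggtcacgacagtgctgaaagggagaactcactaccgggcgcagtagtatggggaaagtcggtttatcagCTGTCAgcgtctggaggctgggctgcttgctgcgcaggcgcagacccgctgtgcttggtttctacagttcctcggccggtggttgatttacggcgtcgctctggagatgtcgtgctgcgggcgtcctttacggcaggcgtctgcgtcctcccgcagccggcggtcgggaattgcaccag
Atp5b, chr10:128083057-128083356, plus strand: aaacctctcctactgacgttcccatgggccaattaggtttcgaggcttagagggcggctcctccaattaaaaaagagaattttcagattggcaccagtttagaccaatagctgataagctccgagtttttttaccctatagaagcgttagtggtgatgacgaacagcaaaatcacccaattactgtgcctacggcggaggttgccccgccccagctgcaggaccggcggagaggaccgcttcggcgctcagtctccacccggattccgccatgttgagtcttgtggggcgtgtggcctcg
Atp5g1, chr11:96075582-96075881, minus strand: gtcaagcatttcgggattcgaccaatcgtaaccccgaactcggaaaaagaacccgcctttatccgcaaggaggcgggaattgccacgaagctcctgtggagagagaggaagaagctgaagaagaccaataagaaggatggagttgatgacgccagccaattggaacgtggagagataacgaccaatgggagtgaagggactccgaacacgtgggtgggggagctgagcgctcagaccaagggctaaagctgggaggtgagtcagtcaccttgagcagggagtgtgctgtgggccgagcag

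In these windows the capitals begin at position -120 from the start site in Cox5b, at -142 in Cox7a1, -208 in Atp5e and -129 in Ndufs5, and after it, at 27, in Cox6a1. The Meis1 summits stood 1.5 bp from the centre of the letters at Cox5b, 20.5 bp at Cox7a1, 20.5 bp at Atp5e and 17.5 bp at Ndufs5. Other members with the letters near a Meis1 summit were Atp5g3 (0.5 bp from the summit), Sdhb (8.5 bp), Atp5c1 (11.5 bp, in 2 overlapping windows) and Ndufb10 (26.5 bp). TTTATNG, a posterior Hox sequence, was present on either strand in 4 of 43 member promoters with a Hoxb13 peak (9.30%) and 7 of 40 without (17.5%), against 6.01% and 10.7% over all promoters. The longer letters TGATTTAT and CTCGTAAA were in 0 member promoters, against 0.814% and 0.113% of all. The promoter windows end before the median summit of the members' Hoxb13 promoter peaks, which lay 154.5 bp into the gene. The sequence under many Hoxb13 summits was therefore not searched, and these counts cannot show whether Hoxb13 sites hold or lack the letters. Sequences known for nuclear respiratory genes were also counted on both strands, without regard to overlap with other motifs. GCGCATGC, a core of the NRF1 site, was in 13 of 83 member promoters (15.7%) against 3.52% of all, and CCGGAAG, an ETS site of the kind read by GABP, in 18 (21.7%) against 11.6%. CCAAT was in 35 (42.2%) against 38.2%, CACGTG in 7 (8.43%) against 7.84%, and TCAAGGTCA, a site of the ERR receptors, in 2 (2.41%) against 0.334%. GCGCATGC was in 7 of the 43 member promoters with a Hoxb13 peak (16.3%) and 6 of the 40 without, against 5.80% and 2.80% over all promoters with and without a Hoxb13 peak.

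At promoters with a peak of both factors the Hoxb13 summit often lay inside the gene and the Meis1 summit before it. At 16 genes the strongest promoter peaks of both were compared, and the Meis1 summit lay upstream of the Hoxb13 summit in 13, by a median over the 16 genes of 237 bp. Among 1071 other genes with promoter peaks of both, Meis1 was upstream in 58.4%, with a median difference of 86 bp. These differences are between genome positions, while positions from the start site use the one each list names, which differs between the lists at Cyc1, Uqcr11 and Atp5g1. Hoxb13 summits lay downstream of the start site in 12 of the 16 genes (median 174.5 bp into the gene), against 58.2% of the other genes (median 70 bp). Meis1 summits lay upstream of it in 13 of the 16 (median -107 bp), against 63.8% of the other genes (median -70 bp). Both were true of 9 genes (56.3%), against 32.6% of the other genes. At Cox7a1 the Hoxb13 summit was at 122 bp and the Meis1 summit at -119 bp. At Cyc1 Hoxb13 was at 207 bp and Meis1 at -94 bp, and at Atp5g3 Hoxb13 was at 249 bp and Meis1 at -95 bp. At Atp5b, Atp5e, Atp5g1 and Uqcr11 both summits were upstream of the start site. The reverse order was seen at Ndufab1, Uqcr11 and Atp5a1. At 3 of the 16 genes no peaks overlapped. The strongest ones were 250 bp apart at Sdhb, 42 bp at Cox6a1 and 4 bp at Atp5g3.

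**Figure D3:**
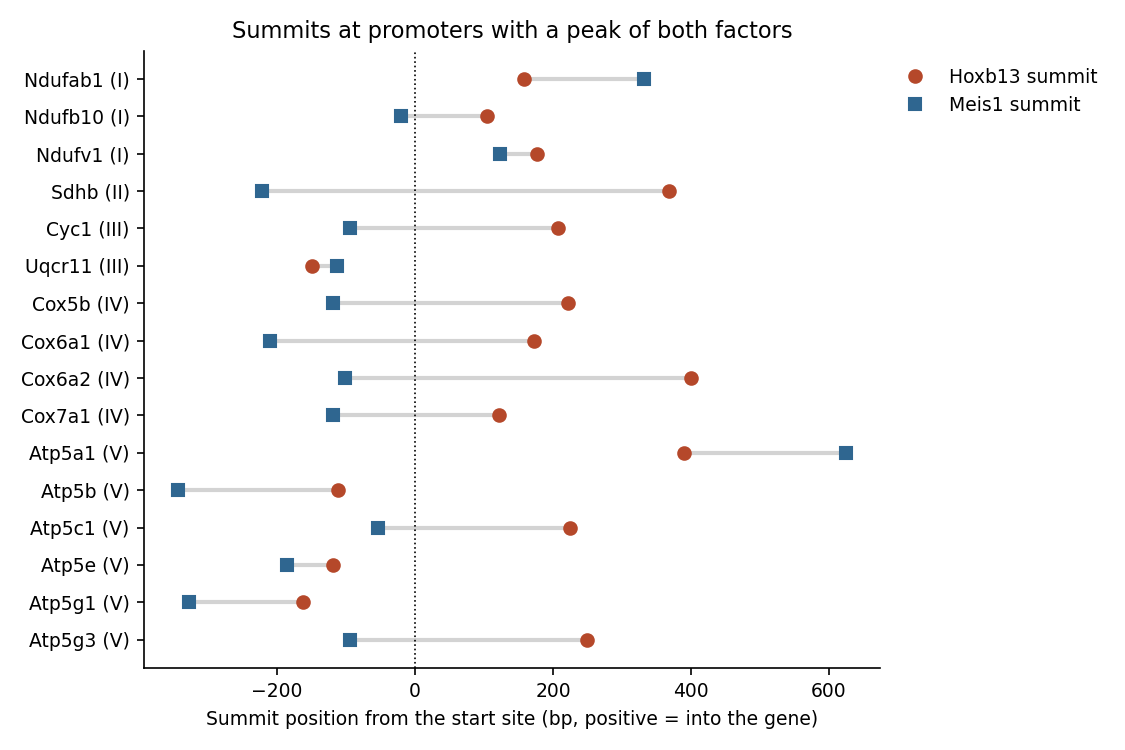
Position of the summit of the strongest Hoxb13 (circles) and Meis1 (squares) promoter peak from the start site, in bp, at the 16 genes with both, with the complex in brackets. Positive values run into the gene; the Meis1 summit is upstream of the Hoxb13 summit in 13 genes, the exceptions being Ndufab1, Uqcr11 and Atp5a1.

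Overlapping peaks were assigned to 14 genes, 13 of them at promoters. The complex V genes were Atp5a1, Atp5b, Atp5c1, Atp5e and Atp5g1. Of these the summits were closest at Atp5e, 66 bp apart (Hoxb13 strength 57.5, Meis1 33.4), while at Atp5b they were 233 bp apart (Hoxb13 64.9, Meis1 27.2). Atp5c1, the gamma subunit that turns in the head, had summits 277 bp apart (Hoxb13 43.5, Meis1 35.5). Atp5a1 had 235 bp (Hoxb13 39.8, Meis1 16.5) and Atp5g1 229 bp (Hoxb13 33.6, Meis1 47.6). The promoter peaks of Atp5g3 (Hoxb13 40.1, Meis1 27.4) did not overlap. In complex I the genes were Ndufv1, the NADH-binding subunit, with summits 54 bp apart (Hoxb13 33.8, Meis1 30.5), Ndufb10 with 125 bp (Hoxb13 32.1, Meis1 15.8) and Ndufab1, the mitochondrial acyl carrier protein, with 174 bp (Hoxb13 29.6, Meis1 18.3). Those of complex III were Uqcr11 (summits 91 bp apart, Hoxb13 20.3, Meis1 28.9) and Cyc1, where 29 bp were shared and the summits were 311 bp apart (Hoxb13 31.1, Meis1 27.0). In complex IV they were Cox5b, with 83 bp for the weaker of its Hoxb13 promoter peaks (Hoxb13 20.3, Meis1 75.2), Cox7a1 with 241 bp (Hoxb13 31.0, Meis1 55.5), Cox6a2 with 301 bp (Hoxb13 20.8, Meis1 20.1) and Cox4i2. At Cox6a2 too the overlapping Hoxb13 peak was the weaker, and the stronger one (33.3) lay 161 bp from the Meis1 peak. The shared site assigned to Cox4i2, a subunit isoform best known from lung, lay 11.3 kb from its start site in an intron of Bcl2l1 (Hoxb13 18.9, Meis1 16.98). The summits of 5 of the 14 pairs were within 100 bp, at Ndufv1, Uqcr11, Cox4i2, Cox5b and Atp5e.

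Muscle and widely expressed isoforms of complex IV subunits showed no common order. Both Cox6a2, the heart and muscle form, and Cox6a1 had Hoxb13 and Meis1 promoter peaks. Hoxb13 strength was 33.3 at Cox6a2 and 21.9 at Cox6a1, while Meis1 strength was 20.1 at Cox6a2 and 42.8 at Cox6a1. For the next pair, Cox7a1 had Hoxb13 at 31.0 and Meis1 at 55.5, and Cox7a2 had Hoxb13 at 22.9 and no Meis1 peak. For the last pair, Cox8b, the muscle form, had Hoxb13 at 26.4 and Cox8a at 41.3, neither with a Meis1 peak. Cox4i1, the common form of subunit 4, had a Hoxb13 promoter peak (23.8) and a Meis1 peak 31.4 kb away, and Cox4i2 had 3 peaks of each factor, all in introns of Bcl2l1. Among forms known from testis, Cox6b2 and Cox8c had no peak, and Cox7b2 had 3 weak Meis1 peaks of 16.6 to 17.6, all in the weaker 50% of the list.

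Away from promoters, Hoxb13 peaks of these genes were more often at gene ends than those of the whole list. Of 124 Hoxb13 peaks 72 were in the promoter class (58.1%, against 40.3% of the list), 16 just downstream of a gene (12.9% against 2.85%) and 6 in a 3' UTR (4.84% against 2.98%). These 22 peaks belonged to 20 genes, and 20 of the 22 had their summit within 3 kb of the end of the assigned gene. In the whole list this held for 782 of 1298 peaks of these classes. The 22 member peaks had a median strength of 20.7, against 21.4 for all peaks of the list. Of the 22, 13 were in the weaker 50% of the list and 0 in the strongest 10%. Of the 20 genes 14 also had a Hoxb13 promoter peak, as had 60 of all 96 members. The strongest were those of Cycs (31.1, summit at -713 bp from the gene's end, inside the gene) and Atp5h (28.2, summit 1404 bp beyond its end). Introns held 8 Hoxb13 peaks, all within other genes, namely Gatad2a, Tfpt, Mtss1, Bcl2l1 and Cpsf4.

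Of 75 Meis1 peaks 20 were in the promoter class (26.7%, against 6.73% of the list) and 42 were distal intergenic (56.0% against 54.9%). Cox7c, a small complex IV subunit, accounted for 24 of the 75, scattered at 23.4 kb to 1376 kb from its start site. None of these was at the promoter, their strengths ran from 15.6 to 23.1, and 19 were in the weaker 50% of the list. Ndufa4, now counted as a complex IV subunit, had 5 Meis1 peaks at 156 to 405 kb. Without Cox7c the promoter share was 39.2% of 51 Meis1 peaks, the distal intergenic share was 35.3%, and their median distance from a start site was 6.44 kb.

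**Figure D4:**
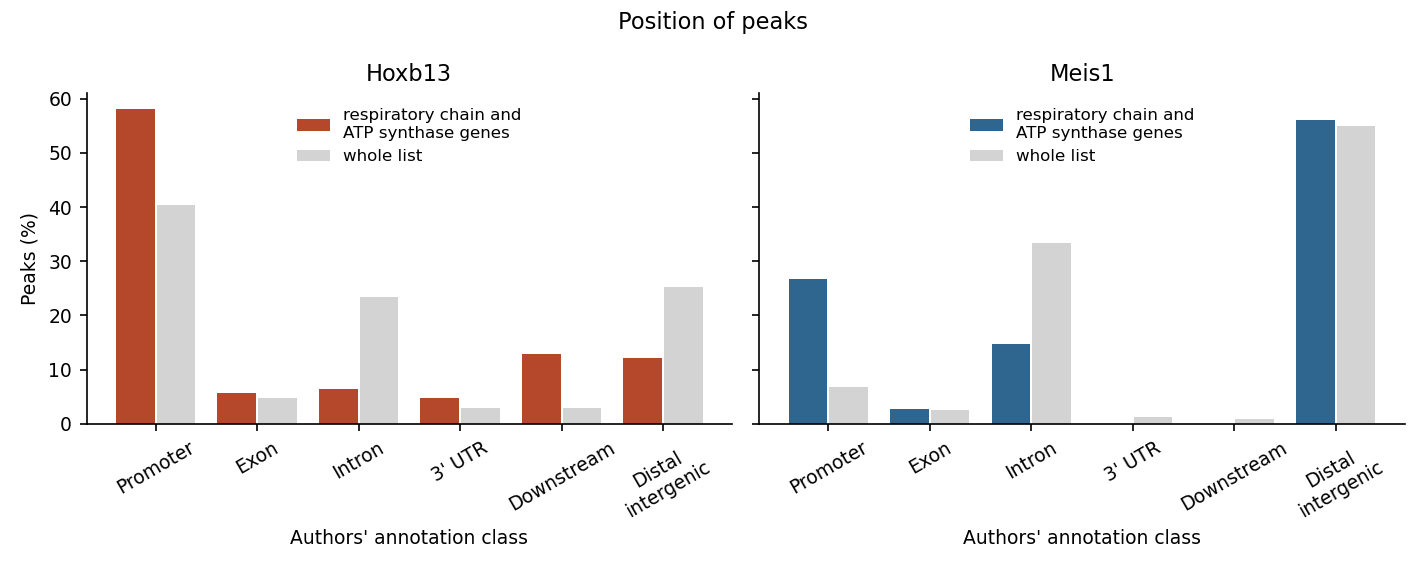
Share of peaks in each annotation class of the authors, in percent, for peaks assigned to the respiratory chain and ATP synthase genes (coloured) and for the whole list (grey), Hoxb13 left and Meis1 right. The 5' UTR class, with 0 member peaks, is not drawn; the member peaks hold a larger promoter share with both factors (58.1% for Hoxb13 and 26.7% for Meis1) and a larger downstream share with Hoxb13 (12.9%).

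The share of all protein-coding genes named by neither list is not given here. Among the 96 members, 20 were named by neither. They were Ndufa1, Ndufa7, Ndufa10, Ndufb1, Ndufb6, Ndufb8, the assembly factors Ndufaf1, Ndufaf2, Ndufaf3, Ndufaf5, Ndufaf6 and Ndufaf7, the Ndufb4 copies Ndufb4b and Ndufb4c, and Uqcrb, Uqcrh, Cox6b1, Cox6b2, Cox8c and Atp5pb. For some of them the assignment of each peak to 1 gene decided this. Of the 78 members with a promoter window 22 had a neighbour read in the opposite direction from a start site within 1 kb. The same share over all promoters was not counted. A Hoxb13 peak overlapped the promoter windows of Atp5pb, Ndufb1 and Ndufa7 but had been assigned to Wdr77, Cpsf2 and Rps28. Likewise a Meis1 peak overlapped the windows of Ndufb1, Ndufa11 and Cycs and had been assigned to Cpsf2, Vmac and 5430402O13Rik. The shared promoter of Atp5c1 and Kin, with start sites 102 bp apart, was counted for Atp5c1.

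Genes of proteins that assemble the complexes without being part of them had Hoxb13 peaks at a lower share than the 80 subunit and cytochrome c genes, of which 83.8% had a Hoxb13 peak and 37.5% a Meis1 peak. Of 47 such genes without the prefixes above, 26 had a Hoxb13 peak (55.3%), 21 at the promoter (44.7%), and 17 a Meis1 peak (36.2%), 8 at the promoter. The Meis1 shares of both sets were near the 38.2% of all protein-coding genes. The strongest Hoxb13 peaks were those of Cox16 (43.4, promoter), Cox18 (rank 1931, promoter) and Cox14 (34.0), assembly factors of complex IV. The Cox14 peak lay upstream of the gene, at -1125 bp from its start site, and was annotated to a 3' UTR. The strongest Meis1 peaks were an intronic one of Cox17, a copper chaperone for complex IV (226, rank 151 of 30534), and the promoter peaks of Tmem126b, which helps build complex I (63.7), and Uqcc1, which acts on complex III (37.8). A site shared by both factors was assigned to 5 of the 47 (10.6%, against 5.89% of all protein-coding genes), namely Ecsit, Tmem126b, Cox17, Atpaf2 and Fmc1.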

How the data were processed

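Per the labels' protocols, chromatin of ventricles from 3 hearts was sheared, a share was kept as input and the rest was divided between the antibodies. The submitters' processing notes name Bowtie2 (2.2.3), Picard, deepTools (1.6), ChIPseeker and the build mm10. How peaks were called, at what threshold, and how 3 libraries became 1 list is not stated there or in the labels. The authors deposited, for each peak, a signal value (strength here, read from its place in the peak format) and a score that was not used, both headed only by a column number and with no account of how they were scaled. Most peaks have 1 width, 396 bp for Hoxb13 and 284 bp for Meis1.

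Genes were matched by Entrez number to a RefSeq table of GRCm38.p6 (10969 of 10981 genes of the Hoxb13 list and 9830 of 9840 of the Meis1 list). A gene counted as bound if at least 1 peak was assigned to it, and peaks as shared with 1 bp or more in common. Summit positions were taken from the start site of the transcript that the list names. Counting used Python 3.11.15 and pandas 2.3.3, and the overlap code was tested on simulated data. The members, complexes, motifs and gene lists were chosen with earlier results of these data known. Any member could be named, and values were given for members with a shared site or a Meis1 promoter peak, for the 3 members with the strongest peak per complex and factor, and for isoform pairs. Alternatives were the stronger 50% of each list, subunits alone, peaks within 10 kb, equal list lengths, promoter windows, and other rules for sharing and assignment. Samples were grouped by their titles, and input libraries entered no comparison.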

Additional observations from a re-analysis of the deposited data

How the results depend on the processing

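Of 20 recomputed shares, 12 stayed inside the exact binomial 95% interval of the reported share and 8 did not. The interval is a yardstick for the size of a change and no test. It takes genes as independent draws, while the recomputed shares come from the same lists. The share of all protein-coding genes can change with the setting too, so these counts do not show whether a difference from it held. The 12 include the Hoxb13 share at equal list lengths, which could not change because the Hoxb13 list is the shorter. With the stronger 50% of each list, 62.5% of the 96 genes had a Hoxb13 peak (29.7% of all protein-coding genes) where the whole list gave 75%, and 7 genes (7.29%, against 3.23% of all) had a shared site where it gave 14. Counting subunits and cytochrome c alone, 83.8% of 80 genes had a Hoxb13 peak and 73.8% a Hoxb13 promoter peak. Limiting the peaks to those inside 10 kb, 24.0% of the 96 genes had a Meis1 peak (19.5% of all). Any peak in the 300-base window counted at 51.3% of 78 genes for Hoxb13 (20.7% of all) and at 21.8% for Meis1 (4.76% of all); that window ends 50 bases into the gene, and Hoxb13 promoter peaks of the members had their median summit at 154.5 bp. Shared sites fell to 5 genes (5.21%) both for summits within 100 bp (2.19% of all) and for a reciprocal overlap of 50% (2.74% of all). No paired analysis was possible because each list covers its 3 libraries with no value per library, and for the same reason no replicate could be left out. Depth is unknown, so a gene without a peak is not shown to be unbound.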

Other observations

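The RefSeq table gives Atp5 symbols to 2 further genes that the lists name otherwise, so the symbol rule left them out. Atp5mpl, listed as 2010107E04Rik, had a Hoxb13 promoter peak of strength 25.5. Atp5md, listed as Usmg5, had a Hoxb13 promoter peak of 28.4 and a Meis1 peak of 19.7 in an intron, 10.2 kb from its start site. Of 19 pseudogenes whose symbols match the rule, 0 were named by either list.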
